A study of Danio rerio with 6 samples.

Results

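The cytosolic ribosomal protein genes were compared between ikzf1 fr105 homozygous mutant zebrafish and their wild-type siblings. Members were taken by name: every gene whose symbol starts with rpl or rps followed by a digit, together with rpsa, rplp0, rplp1, rplp2 and rplp2l, while the ribosomal protein S6 kinases (rps6k) were left out. This gave 85 genes of 32105 in the deposited count table. Of the 85, 42 encode proteins of the large subunit, 37 encode proteins of the small subunit or close copies of them, 4 encode proteins of the stalk, and 2 (rpl7l1 and rps19bp1) carry a name derived from a ribosomal protein. All 85 passed the filter on low counts that left 16630 genes for testing. No genomic positions are given, because the table identifies genes by Ensembl identifier only.

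The mutants carried the fr105 allele of ikzf1 on both chromosomes. This CRISPR/Cas9 deletion shifts the reading frame and removes all zinc fingers but the first. The wild-type group consisted of homozygous siblings, labelled as a mixture of different wild-type strains. Both groups were labelled 5 days post fertilisation (dpf) and whole body, with 3 libraries each, numbered 1 to 3 for mutants and 4 to 6 for wild type, and each made from 1 fish according to the methods. The allele is constitutive, so every cell of a mutant carries it, and only this 1 allele was examined here.

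The cytosolic ribosome is built from a small subunit, which reads the mRNA, and a large subunit, which joins amino acids and carries a flexible stalk that recruits translation factors. In vertebrates the mRNAs of its proteins start with a terminal oligopyrimidine (TOP) tract, which places their translation under the control of the mTORC1 kinase. Blood formation is known to be sensitive to ribosomal protein dose: in humans, loss of 1 copy of several of these genes causes Diamond-Blackfan anaemia, in which red cell production fails. Zebrafish keep additional copies of some of the genes.

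The 6 libraries held between 34759504 and 39404324 counts, and the TMM scaling factors lay between 0.984 and 1.02. The targeted gene ikzf1 (ENSDARG00000013539), which encodes a zinc finger transcription factor of blood cells, stood at 1388, 1243 and 833 CPM (counts scaled to a common library size) in mutants 1, 2 and 3 and at 228.5, 175.9 and 263.8 CPM in wild type 4, 5 and 6. This was 2.37 ± 0.23 higher in mutants on the log2 scale (SE, adjusted p = 0.000362, edgeR). Reads from exons outside the deletion are counted too, so this level does not check the genotype. The tissue markers went against the labelled whole-body origin at 5 dpf, so tissue and age are given here as labelled only. Of 7 skeletal muscle genes matched, 3 were at 0 in every library, and of 7 lens genes, 4 were. No library gave more than 15 counts to the muscle list or 23 to the lens list. Embryonic and larval globins took at most 0.000741% of counts, whereas the adult globins took 0.854% to 2.18%. The larval list of 8 symbols matched 4 genes, of which 2 were at 0 in every library. The adult list of 6 symbols matched 2 genes. Globins that were not matched are missing from these shares. Erythroid and myeloid markers took 1.16% to 3.04% and 2.65% to 5.70% of counts.

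Ribosomal protein transcripts took a smaller share of the library in every mutant. They received 9.84%, 11.1% and 9.99% of all counts in mutants 1, 2 and 3, and 12.7%, 12.8% and 11.9% in wild type 4, 5 and 6. The groups did not overlap, with mutant 2 and wild type 6 nearest to each other. The mean share was 10.3% ± 0.688 (SD, n = 3) for the mutants against 12.5% ± 0.493 (SD, n = 3) for the wild type, a difference of -2.16 percentage points. The 95% Wilson interval for counting error was narrow, from 9.83% to 9.85% in mutant 1. No test was made on the share, since the genes were chosen with earlier results known. In RNA from many cells, fewer cells of a type and less RNA per cell cannot be told apart.

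**Figure D1:**
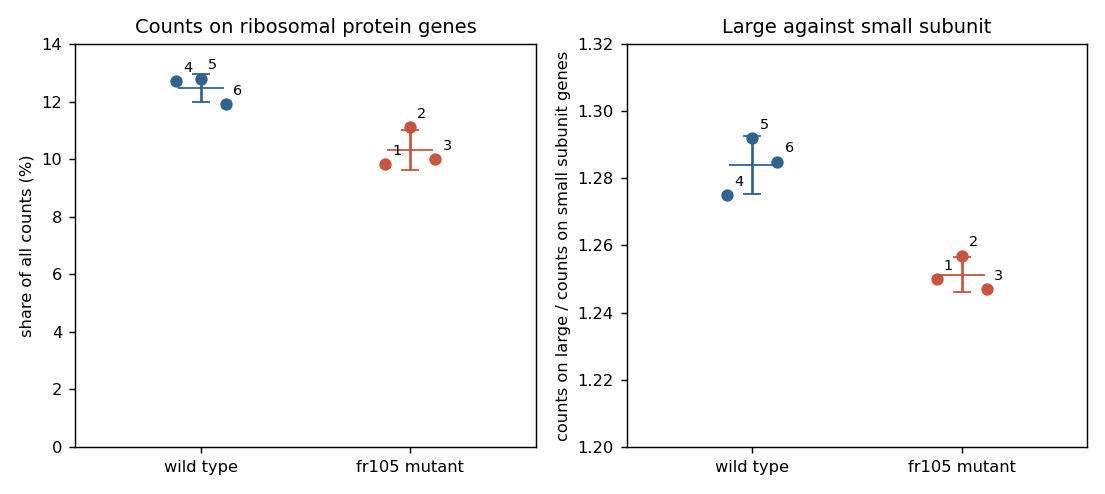
Left, percent of all counts on the 85 ribosomal protein genes in each library. Right, counts on large subunit genes divided by counts on small subunit genes, on an axis that does not start at 0. Points are libraries with their replicate number, and the bar is the mean ± SD of 3 libraries. The mutants lie between 9.84% and 11.1% on the left and the wild type between 11.9% and 12.8%.

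The 3 structural parts differed in the same direction. Large subunit genes took 5.31% ± 0.368 of mutant counts and 6.53% ± 0.259 of wild-type counts, small subunit genes 4.24% ± 0.276 and 5.09% ± 0.197, and stalk genes 0.754% ± 0.0457 and 0.858% ± 0.0215 (SD, n = 3 each). The ratio of large to small subunit counts was 1.25, 1.257 and 1.247 in the mutants and 1.275, 1.292 and 1.285 in the wild type. This ratio did not overlap between the groups either, although the means differed by only a factor of 0.975.

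Shares of T cell, B cell and thrombocyte markers also did not overlap between the groups, whereas those of erythroid markers overlapped and those of myeloid markers met at 4.27% as rounded. The counts below stand beside 8.76% of all genes called lower and 11.0% called higher. The 9 T cell markers matched took 0.0109% to 0.0176% of mutant counts and 0.0307% to 0.0332% of wild-type counts, and 5 of 9 passed the test, all lower. The 10 B cell markers took 0.140% to 0.150% and 0.168% to 0.224%, with 8 of 10 lower. Their median log2 fold change was -2.14, a larger fall than that of the summed share. The list includes cd74a and cd74b, which the paper found at high levels in macrophages too. The 9 erythroid markers took 2.30% to 3.04% of mutant and 1.16% to 2.66% of wild-type counts, and 3 of 9 were called higher. Their median log2 fold change was 0.73. Without overlap, 7 of 9 lay above wild type and 0 below it, beside 21.3% and 20.6% of all genes. The list includes adult globins, which took 1.65% to 2.18% of mutant and 0.854% to 2.03% of wild-type counts and so weigh heavily in its share. The 10 myeloid markers took 4.27% to 5.70% and 2.65% to 4.27%, with 1 of 10 called higher, a share near the background. The 6 thrombocyte markers took 0.0367% to 0.0446% and 0.0217% to 0.0302%, with 3 of 6 higher. No gene of these 5 lists was at 0 in all libraries. Their part in the ribosomal protein result was not tested.

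At the level of single genes, most ribosomal protein genes lay slightly below wild type, and few passed the test. The edgeR estimate was below 0 for 80 of 85 members, where 50.5% of all genes tested were below 0. The median log2 fold change was -0.26 for the members and -0.005 for all 16630 genes. With edgeR's quasi-likelihood test and adjustment over all genes, 3 members fell at an adjusted p under 0.05 and 0 rose. The background of this call was 19.8% of genes, 8.76% lower and 11.0% higher, so the 3 members called, 3.53% of the list, were a smaller share than that of all genes. Another 22 members had an adjusted p between 0.05 and 0.1, a band for which no share of all genes was computed. At an unadjusted p under 0.05, 44 members were lower and 2 higher, beside a background of 17.0% and 18.7%. DESeq2 called 22 members lower and 1 higher, beside a background of 9.60% and 11.7%. The p-values of the members are not independent of each other, because they rest on the same 6 libraries.

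Every mutant library lay below every wild-type library for 61 of 85 members, or 71.8%, where this held for 20.6% of all genes tested. Only rps27l showed the opposite order (background 21.3%), and the other 23 overlapped. The shift was shared within a library: the median member deviated from its wild-type mean by -0.34, -0.13 and -0.33 on the log2 scale in mutants 1, 2 and 3, and by 0.02, 0.06 and -0.08 in wild type 4, 5 and 6. Mutant 2 therefore lay closest to the wild type.

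**Figure D2:**
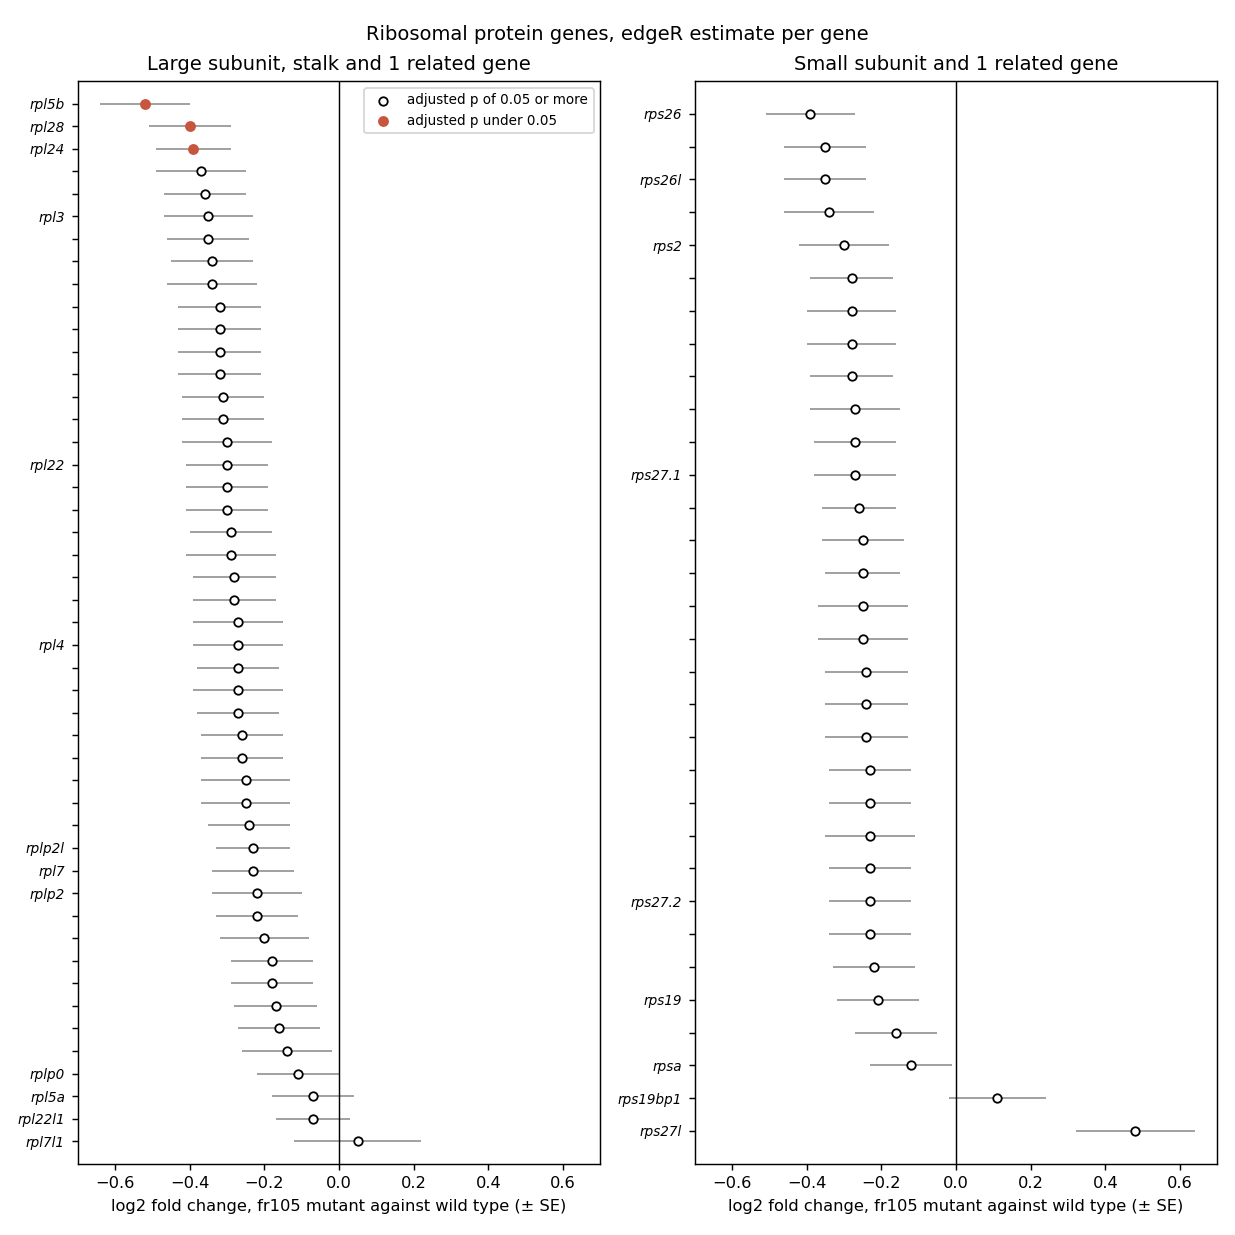
Log2 fold change of each ribosomal protein gene, fr105 mutant against wild type, with its standard error. Filled points passed the test (rpl5b, rpl28 and rpl24) and open points did not. Genes named in the text are labelled, and genes that are not reported here are left out. Most genes lie between -0.4 and -0.1.

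The abundant members formed a narrow band. Of the 85, 80 had at least 2000 counts in every library, a minimum chosen after the values were seen. All 80 had a negative estimate, from -0.52 to -0.07, with an SD between genes of 0.07. The median standard error of a single gene against wild type was 0.11, which includes the shift that the members of a library share. The other 5 members, among them rpl7l1, rps19bp1 and rps27l, all had a positive estimate, and none of them passed the test.

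**Figure D3:**
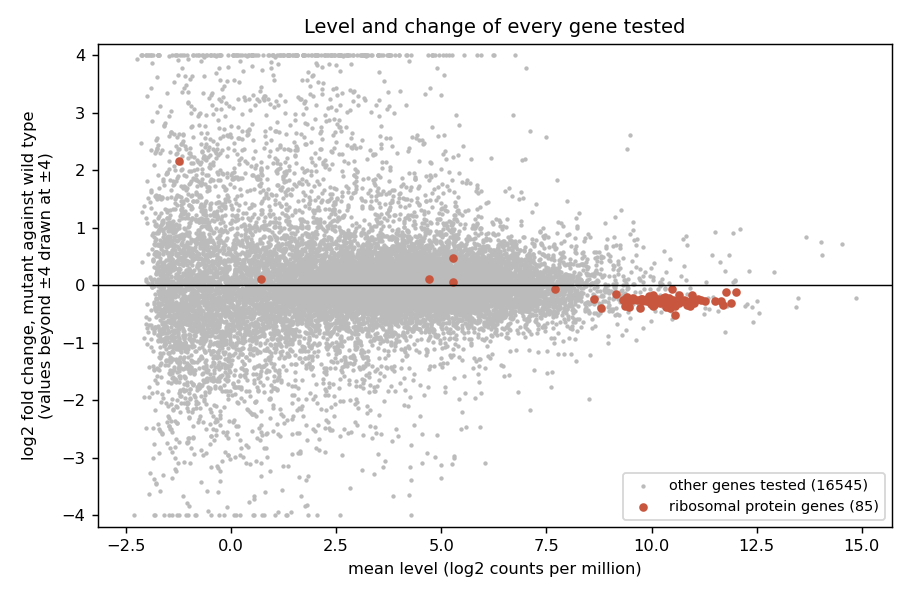
Mean level in log2 CPM against log2 fold change for all 16630 genes tested. The 85 ribosomal protein genes are coloured and the other 16545 are grey. Most ribosomal protein genes lie at the right end of the plot, just below 0.

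Large subunit genes held all 3 edgeR calls, or 7.14% of 42 genes beside 8.76% of all genes called lower. DESeq2 called 17 of the 42 lower, beside a background of 9.60%. All 42 had a negative estimate, with a median of -0.29 and a range from -0.52 to -0.07, and 31 lay below wild type without overlap (73.8%, beside 20.6% of all genes). The gene with the largest fall was rpl5b (ENSDARG00000015862), 1 of a pair of copies encoding the 5S rRNA-binding protein Rpl5. Its level was 1138, 1383 and 1164 CPM in mutants 1, 2 and 3 and 1783, 1852 and 1655 CPM in wild type 4, 5 and 6. The groups were well apart, and the gene fell by 30.3%, or by 0.52 ± 0.12 on the log2 scale (SE, adjusted p = 0.0205, edgeR). It was no longer called without mutant 1 (adjusted p = 0.0851), mutant 3 (0.0917) or wild type 5 (0.0606).

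The gene rpl28 (ENSDARG00000005791), which encodes a protein of the large subunit, stood at 685.4, 792.5 and 709.0 CPM in the mutants and at 958.4, 1000.0 and 918.2 CPM in the wild type. It fell by 0.40 ± 0.11 (SE, adjusted p = 0.0373, edgeR) without overlap. For rpl24, whose protein lies at the interface with the small subunit, the levels were 1191, 1241 and 1202 CPM in the mutants and 1633, 1642 and 1481 CPM in the wild type. The mutants were tightly grouped here, and rpl24 fell by 0.39 ± 0.10 (SE, adjusted p = 0.0340, edgeR). Neither call held throughout with 1 library left out. The call of rpl24 was lost when any library was left out (adjusted p from 0.0513 to 0.123, edgeR). That of rpl28 was lost when any library but mutant 2 was (0.0641 to 0.134). The log2 estimates stayed between -0.43 and -0.36 for rpl24 and between -0.46 and -0.35 for rpl28. Over the whole table these fits also called fewer genes, 1927 to 2837 in place of 3291.

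The large subunit genes with the most counts were rpl3, whose protein reaches the peptidyl transferase centre, and rpl4, whose protein lines the exit tunnel. For rpl3 the levels were 2754, 3186 and 2787 CPM in mutants and 3794, 3912 and 3387 CPM in wild type, without overlap. The log2 difference was -0.35 ± 0.12 and did not pass (SE, adjusted p = 0.0760, edgeR), while DESeq2 gave an adjusted p of 0.0322. For rpl4 the log2 difference was -0.27 ± 0.12 (SE, adjusted p = 0.143, edgeR).

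No small subunit gene passed the edgeR test, beside 8.76% of all genes called lower and 11.0% called higher. DESeq2 called 5 small subunit genes lower and 1 higher, beside a background of 9.60% and 11.7%. Of 37, 34 had a negative estimate, the median was -0.25, and 28 lay below wild type without overlap (75.7%, beside 20.6% of all genes). The lowest estimate was that of rps26, whose protein sits at the mRNA exit channel. Its levels were 370.9, 433.7 and 351.6 CPM in mutants and 535.7, 526.8 and 455.2 CPM in wild type. The difference of -0.39 ± 0.12 missed the threshold (SE, adjusted p = 0.0596, edgeR), while DESeq2 gave an adjusted p of 0.0269. The gene rps2, whose protein lies at the mRNA entry channel, differed by -0.30 ± 0.12 (SE, adjusted p = 0.104, edgeR), at 3222, 3702 and 3273 CPM in mutants against 4200, 4470 and 3906 CPM in wild type. For rpsa, which encodes a small subunit protein also known as the laminin receptor, the groups overlapped: the levels were 3203, 3682 and 3229 CPM in mutants and 3825, 3646 and 3520 CPM in wild type. Its difference was -0.12 ± 0.11 (SE, adjusted p = 0.479, edgeR).

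The 4 stalk genes had a median of -0.22 and a range from -0.27 to -0.11, and none passed the test. The base of the stalk is formed by the product of rplp0, the member with the highest CPM. It stood at 3806, 4264 and 3845 CPM in mutants and at 4401, 4279 and 4164 CPM in wild type, so that mutant 2 lay above wild type 6. The difference was -0.11 ± 0.11 (SE, adjusted p = 0.506, edgeR). The acidic stalk protein genes rplp2 and rplp2l differed by -0.22 ± 0.12 and -0.23 ± 0.10 (SE, adjusted p = 0.214 and 0.162, edgeR). Transcript lengths were not used here, so the CPM values do not order the genes by number of transcripts.

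Several ribosomal proteins are encoded by more than 1 gene, and the ratio between the copies within a library does not depend on scaling. The log2 ratio of counts was compared for 10 pairs, 7 of which are reported here, by a two-sided exact permutation test, in which 3 against 3 libraries cannot give a p below 0.1. Reads that matched both copies equally were probably not counted, since the counter leaves out multi-mapped reads by default. The ratios therefore rest on the reads that tell the copies apart.

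Relative to the spread within groups, the clearest difference was between the copies of rpl5. The gene rpl5b made up 46.0%, 48.0% and 46.1% of rpl5 counts in mutants 1, 2 and 3 and 55.0%, 54.7% and 53.9% in wild type 4, 5 and 6. The copy with fewer counts was thus rpl5b in every mutant and rpl5a in every wild-type library. Transcript lengths were not used, so this does not rank the copies by number of transcripts. The log2 ratio averaged -0.19 ± 0.06 over the mutants and 0.26 ± 0.03 over the wild type (SD, n = 3 each), a difference of -0.46 (exact permutation p = 0.1, the smallest possible, 0.25 after adjustment over 10 pairs). This came with a level of rpl5a that overlapped between groups, at 1338, 1501 and 1362 CPM in mutants and 1457, 1537 and 1415 CPM in wild type, a difference of -0.07 ± 0.11 (SE, adjusted p = 0.676, edgeR).

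Another 2 of the reported pairs did not overlap, each with an exact permutation p of 0.1 and 0.25 after adjustment. The gene rps27l, a copy of rps27 that in human cells is a target of p53, made up 4.65%, 5.98% and 5.41% of the counts it shared with rps27.1 in mutants and 3.11%, 2.81% and 3.93% for the wild type. Its log2 ratio to rps27.1 averaged -4.15 ± 0.19 over the mutants and -4.89 ± 0.26 over the wild type (SD, n = 3 each). The difference of 0.74 was larger than that of the rpl5 copies, with a wider spread. The share of rpl22l1 beside rpl22 was 24.9% ± 0.699 over the mutants and 22.1% ± 1.55 over the wild type (SD, n = 3 each). The level of rpl22l1 differed by -0.07 ± 0.10 and that of rpl22 by -0.30 ± 0.11 on the log2 scale (SE, adjusted p = 0.671 and 0.0964, edgeR).

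For the other 4 reported pairs the groups overlapped. The log2 ratio of rplp2l to rplp2 was 0.72 ± 0.08 over the mutants and 0.73 ± 0.12 over the wild type (SD, n = 3 each, exact permutation p = 1.0). The ratios of rps26l to rps26 and of rps27.2 to rps27.1 each differed by 0.04 (exact permutation p = 0.5 and 0.6), and that of rpl7l1 to rpl7 by 0.28 (exact permutation p = 0.4). The last pair was matched by symbol, and rpl7l1 only carries a name derived from a ribosomal protein.

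**Figure D4:**
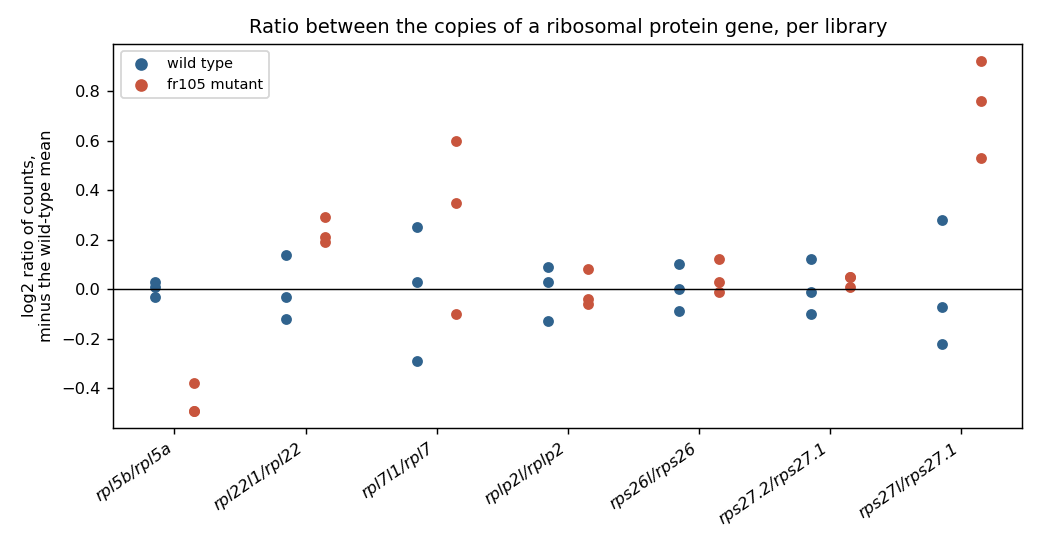
Log2 ratio of counts between copies of a ribosomal protein gene in each library, with the wild-type mean of the pair subtracted. Blue points are wild-type libraries and red points are mutants. The 7 reported pairs are shown, among them rpl7l1/rpl7, where rpl7l1 only carries a name derived from a ribosomal protein. For rpl5b/rpl5a all mutants lie below the wild type, and for rpl22l1/rpl22 and rps27l/rps27.1 all lie above it.

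Of the members, rps27l had the only level above wild type in every mutant. It stood at 36.8, 54.6 and 43.5 CPM in mutants 1, 2 and 3 and at 30.1, 29.9 and 36.6 CPM in wild type 4, 5 and 6. Mutant 1 was only just above wild type 6. The difference was 0.48 ± 0.16 (SE, adjusted p = 0.0684, edgeR), and DESeq2 gave an adjusted p of 0.0417.

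A scaling computed on the members alone shows the change of each gene, mutant against wild type, relative to that of the members. It moves the median of all genes to 0.27 and the median of the members to 0.01. The members are centred at 0 by this scaling, so a low count of members called was in part fixed in advance. On this scale 2 members were called at an adjusted p under 0.05, beside 26.0% of all genes tested. The 2 that were called were rps27l and rpl5b. On this scale rps27l rose by 0.73 ± 0.16 in mutants (SE, adjusted p = 0.0140, edgeR, background 21.5% higher). The gene rpl5b fell by 0.26 ± 0.08 (SE, adjusted p = 0.0391, edgeR, background 4.46% lower). Under this scaling the log2 change of rpl5a was 0.20 (adjusted p = 0.0838, edgeR).

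Genes mutated in Diamond-Blackfan anaemia followed the other members. All 17 zebrafish genes on that list had a negative estimate, with a median of -0.27, and 13 lay below wild type without overlap (20.6% of all genes did). By the test, 1 fell (rpl5b) and 0 rose, beside a background of 8.76% and 11.0%. Other low estimates were those of rps26, at -0.39, and of rps26l, at -0.35 ± 0.11 (SE, adjusted p = 0.0512, edgeR). For rps26l, DESeq2 gave an adjusted p of 0.0154. The gene rps19, most often mutated in patients and named here after its values were seen, differed by -0.21 ± 0.11 (SE, adjusted p = 0.219, edgeR).

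Of ribosomal proteins whose names fall outside the rule, 4 genes were tested and none passed. The median was -0.25, and 3 lay below wild type without overlap (20.6% of all genes did), while faub, a copy of fau named here after its values were seen, had an estimate of 0.21 (adjusted p = 0.377, edgeR). The gene fau, which encodes a small subunit protein fused to a ubiquitin-like protein, differed by -0.29 (adjusted p = 0.102), and gnb2l1, which encodes the scaffold Rack1, by -0.22 (adjusted p = 0.186, edgeR).

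Translation factors, many of whose mRNAs also carry a TOP tract, had a median of -0.24. Of 32 tested, 25 had a negative estimate and 18 lay below wild type without overlap (20.6% of all genes did). By the test 5 fell and 1 rose, beside a background of 8.76% and 11.0%. The elongation factor gene eef1da fell by 0.58, from 338.9 ± 40.2 to 227.1 ± 18.9 CPM (SD, n = 3 each, adjusted p = 0.0149, edgeR). Among initiation factor eIF3 subunits, eif3eb fell by 0.83 (adjusted p = 0.0233) and eif3hb rose by 0.46 (adjusted p = 0.0171, edgeR). With 1 library left out, the adjusted p reached 0.0698 for eef1da, 0.0828 for eif3eb and 0.0661 for eif3hb.

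Ribosome biogenesis factors, which build the particle in the nucleolus, were lower in summed counts but centred on 0 gene by gene. They took 0.346% to 0.384% of counts in mutants and 0.401% to 0.433% in wild type, without overlap. Of 67 tested, 34 had a negative and 33 a positive estimate, and the median was -0.00. Without overlap, 10 lay below wild type and 0 above it, beside 20.6% and 21.3% of all genes. By the test 5 fell and 0 rose, or fewer than the background of 8.76% and 11.0% in both directions. The lowest p-values belonged to ddx21, an RNA helicase of rRNA transcription and processing (-0.74, adjusted p = 0.0151), pno1, needed for the small subunit (-0.51, adjusted p = 0.0209), and heatr1, a factor of rRNA processing (-0.41, adjusted p = 0.0276, edgeR). With 1 library left out their adjusted p reached 0.0624, 0.0899 and 0.0829. The RNA polymerase I machinery, which transcribes rRNA, had 13 genes tested, a median of -0.07 and no call. Its lowest p-values were those of taf1b (-0.78, adjusted p = 0.103), polr1d (0.53, adjusted p = 0.116) and polr1b (-0.28, adjusted p = 0.136, edgeR).

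The list of the mTORC1 and S6 kinase pathway, in which mTORC1 controls translation of the TOP mRNAs, had 15 genes tested and a median of 0.00. Only rheb, an activator of mTORC1, passed: it fell by 1.93 at a low level, from 0.607 to 0.159 CPM (adjusted p = 0.0493, edgeR), as 1 gene of 15 beside 8.76% of all genes called lower. The call was lost in 5 of 6 fits with 1 library left out (adjusted p up to 0.135), and other settings gave up to 0.0736. Its relative rhebl1 differed by 0.32 (adjusted p = 0.0634) and the S6 kinase gene rps6kb1a by 0.36 (adjusted p = 0.0727, edgeR).

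Among p53 and its targets, 13 genes tested had a median of 0.23, or 0.15 among those with a mean of at least 50 counts. There was 1 call in each direction, near the background of 8.76% and 11.0%. Both calls held with any library left out. The cell cycle inhibitor gene cdkn1a rose by 1.70, from 5.26 ± 1.83 to 17.1 ± 2.80 CPM (SD, n = 3 each, adjusted p = 0.00352, edgeR). The pro-apoptotic gene bbc3 fell by 0.70, from 29.2 ± 1.90 to 17.9 ± 2.27 CPM (SD, n = 3 each, adjusted p = 0.00629, edgeR). The difference of zmat3, 2.1, rested on about 1 CPM and missed the threshold (adjusted p = 0.0515, edgeR).

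**Figure D5:**
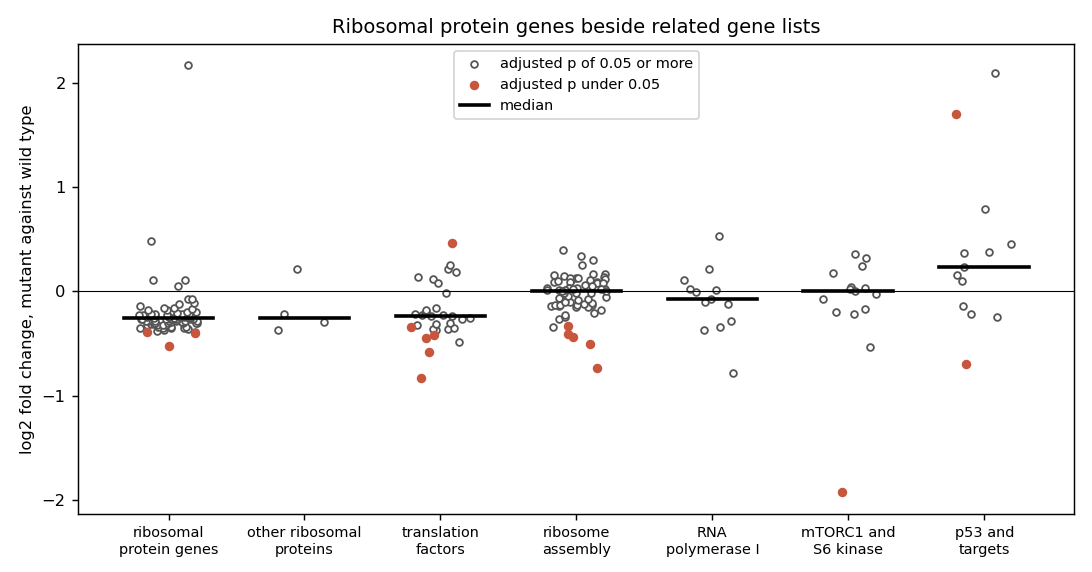
Log2 fold change, mutant against wild type, of the ribosomal protein genes and of 6 lists of related genes. Each point is a gene, filled where its adjusted p was under 0.05, and the black line is the list's median. The medians of ribosomal protein genes (-0.26), other ribosomal proteins (-0.25) and translation factors (-0.24) lie below 0, and those of ribosome assembly factors and the mTORC1 pathway lie at 0.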

How the data were processed

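Fish labelled whole body, 5 dpf, were processed for poly-A RNA-seq with stranded libraries and paired-end reads of 75 bp. The authors deposited raw counts per gene, made with STAR 2.5.2b-1 and featureCounts 1.6.0.1 at default settings on the GRCz10 assembly with Ensembl annotation. Default counting ignores strand and leaves out multi-mapped reads, so antisense and near-identical genes are uncertain. The authors used DESeq2 for their own comparison, whose values were not used here.

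Counts were tested with edgeR 4.0.16 in R 4.3.3 (TMM, filterByExpr, quasi-likelihood F test, two-sided, Benjamini-Hochberg over 16630 genes, threshold 0.05). Each standard error was derived from the F statistic, as the size of the log2 fold change over the root of F. CPM is scaled by TMM. DESeq2 1.42.0, other scalings, filters, thresholds, denominators and pseudocounts, and leaving out each library were the alternatives. Copy ratios used log2 counts with 0.5 added, and their exact permutation test was written in Python 3.11.15. SciPy 1.17.1 gave the Wilson intervals of the shares. Only the edgeR fit was tested on simulated counts. Each library is described as 1 fish, so p-values measure the spread between 3 fish per group. The smallest chi-square between replicates of a group was 48 per gene, so no library was a duplicate of another in its group.

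Symbols came from the study's supplementary tables for 72 members and from a name table for 13. Members and lists were chosen with earlier results of these data known. Genes were named by rule: the called members, members with more than 1 copy, the 5 with the highest mean CPM, the 4 Diamond-Blackfan genes with the largest estimate, the 3 lowest p-values of each related list, and ikzf1. Symbols such as rpl7a and rpl10a, whose last letter marks a different protein, were not treated as copies. Some genes the rule names are not reported here. Of the 13 marker lists, neuron, larval globin and epidermis took at most 0.000741% of counts in any library, kidney tubule 0.0114% to 0.0229%, and stem and progenitor 0.0502% to 0.0669%.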

Additional observations from a re-analysis of the deposited data

How the results depend on the processing

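The median of the members kept its sign and lay between -0.31 and -0.25 under the other scalings, filters and tests, except scaling on the members alone, which set it to 0.01 by construction. It lay between -0.32 and -0.22 with 1 library left out. The difference in share of counts stayed between -2.55 and -1.92 percentage points, over settings that do not all share 1 denominator. Without the 10 most abundant other genes, the mean share was 12.2% in mutants and 14.4% in wild type. The ratio of these means was 0.847, in place of 0.827 on all counts. The number of members called was unstable across settings. It stayed at 3 with RLE scaling and with a filter at a mean of 50 counts. It was 23 with DESeq2, 11 with library size scaling, 11 with upper quartile scaling and 10 with a robust fit. It was 6 with TMM computed without the members and 1 with no low-count filter. Requiring a log2 change of at least 0.5 as well left 1, and an adjusted p under 0.01 left 0. All these calls were lower, except 1 with DESeq2. DESeq2 called 21.3% of all genes it tested. Of 16630 genes, library size scaling called 3350, upper quartile scaling 3417, the robust fit 3326 and TMM without the members 3321. No low-count filter gave 3193 genes, and the log2 requirement 2873. RLE scaling gave 3298, and the filter at a mean of 50 counts 2806. At an unadjusted p under 0.05, edgeR gave 44 members lower and 2 higher, beside 17.0% and 18.7% of all genes. With 1 library left out, the number of members called ranged from 0 (without mutant 3 or wild type 5) to 9 (without mutant 2). Without mutant 1, the only member called was higher. Without wild type 6, 2 members were called, 1 higher and 1 lower. Over the whole table, 3291 genes were called, 1399 at an adjusted p under 0.01 and between 1927 and 2837 with 1 library left out. Scaling on the members alone called 4322 genes, of which 82.8% were higher, against 55.7% of those called with TMM.

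Scaling on the members alone left 41 members below 0 in place of 80, since it centres them at 0. Of the named genes it turned the sign of rpl22l1 (0.20), rpl5a (0.20), rpl7 (0.04), rplp0 (0.16), rplp2 (0.05), rplp2l (0.04), rps27.2 (0.04) and rpsa (0.15). The turn of sign alone says nothing beyond that centring. On this scale rpl5a and rplp0 had an unadjusted p of 0.0293 and 0.0392 (adjusted p = 0.0838 and 0.102, edgeR). Of all 85 members, 5 had an unadjusted p under 0.05 on this scale (edgeR). No share of all genes was computed for that threshold. Leaving out mutant 1 or wild type 5 turned rpl7l1 (-0.08 and -0.06, range to 0.19 over the 6 libraries left out); the cause was not tested. None of these 9 genes was called in either setting. No paired analysis was possible because mutants are numbered 1 to 3 and wild type 4 to 6, so the groups share no replicate number. The counts of members below wild type without overlap, chosen after the data were seen, lay between 61 and 80. Leaving out a library removes values and so tends to raise the count. The share of all genes, 20.6%, was computed only with TMM and all 6 libraries, where the count was 61. The higher counts therefore have no share of all genes beside them. Depth limits few of the members, since all but 5 had over 2000 counts in each library.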
